A study of Mus musculus with 6 samples.

Results

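The transcripts of 7 connexin genes, Gja1, Gja4, Gja5, Gjb1, Gjb2, Gjb5 and Gjc1, were followed in the whole epididymis of mice with and without occludin. They were taken by symbol from a table of 57127 genes, and 9 other connexins are described after them. All mice were adult C57BL/6 animals. The groups were wild type (WT, 3 libraries) and mice lacking occludin, genotype Ocln-/-, called Ocln-KO (3 libraries), and the comparison asked how the tissue's transcripts differ when this tight junction protein is missing. The study's methods describe separate RNA extractions for 3 pairs of mice but also mention pooled RNA, so a library may hold more than 1 mouse. The p-values therefore measure the spread between these libraries.

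Connexins are membrane proteins that assemble into hemichannels, and hemichannels of neighbouring cells dock to form gap junctions, through which ions, second messengers and small metabolites pass. Tight junctions, to which occludin belongs, seal the space between epithelial cells instead of joining their cytoplasms. In the epididymis, gap junctions are known between principal and basal cells of the epithelium, in the contractile layer around the duct and in blood vessels, and different connexins serve these places.

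Most connexins have an extracellular loop with a set pattern of cysteines, which holds the docking surface together by disulfide bonds. The coding bases of this stretch in the first loop are shown for 6 of the 7 genes because they hold these cysteines, and because they show how far the genes can still be told apart there. The cysteine codons are in capitals.
Gja1: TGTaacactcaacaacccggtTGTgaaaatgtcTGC
Gjb1: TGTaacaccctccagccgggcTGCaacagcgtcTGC
Gjb2: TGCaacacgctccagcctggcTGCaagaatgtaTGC
Gjb5: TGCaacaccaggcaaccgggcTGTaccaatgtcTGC
Gja5: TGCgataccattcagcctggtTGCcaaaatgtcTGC
Gjc1: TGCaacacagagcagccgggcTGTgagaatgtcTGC
These stretches of 36 bases, read 5' to 3' in the coding strand of the GENCODE M21 transcripts on GRCm38, lie for Gja1 at chr10:56387706-56387741 (plus strand), Gjb1 at chrX:101384324-101384359 (plus strand), Gjb2 at chr14:57100558-57100593 (minus strand), Gjb5 at chr4:127356158-127356193 (minus strand), Gja5 at chr3:97050788-97050823 (plus strand) and Gjc1 at chr11:102800984-102801019 (minus strand). The same base stood in all 6 genes at 19 of the 36 positions. The closest pairs, Gjb1 with Gjb2 and Gjb5 with Gjc1, shared 29 bases, and the most distant pairs, such as Gja1 and Gja5, shared 25. The cysteine spacing was found in 15 of the 16 connexins described here. Even here, then, each pair of the 6 genes differed at several positions. The predicted proteins ranged from 226 codons in Gjb2 to 396 codons in Gjc1, with 382 in Gja1.

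RNA depleted of rRNA was sequenced, and the deposited values are read counts per gene. The WT libraries held 38870780, 35066211 and 38073990 counts and the Ocln-KO libraries 30646424, 31570990 and 32776523. Levels are given below as counts per 1000000 counts (CPM) after scaling with edgeR's TMM factors, so that 1 count equals between 0.0267 and 0.0314 CPM. Where a gene is called the most abundant of a list, its CPM was the highest, which takes no account of gene length. A level at or under 3 counts, at most 0.0942 CPM, is treated as not detectable at this depth, which covers counting error only. Ocln itself, on chromosome 13 from 100496507 to 100552718, was at 85.9, 78.8 and 91.8 CPM in the WT libraries and at 15.1, 15.3 and 14.9 CPM in the Ocln-KO libraries. The genotypes were far apart for Ocln, which matched the labels of all 6 libraries, and its log2 fold change was -2.50 (standard error 0.09; edgeR quasi-likelihood test, Benjamini-Hochberg, adjusted p = 0.000108).

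An extraction note in the sample records names another organ, the prefrontal cortex, while the tissue label is whole epididymis. Of 12 epididymal genes, Crisp1, a secreted sperm-binding protein, was the most abundant with means of 14891 CPM (WT) and 7852 CPM (Ocln-KO). Of 11 genes of the cerebral cortex, Mbp was the most abundant in the mean over the 6 libraries, with 10.2 CPM (WT) and 15.7 CPM (Ocln-KO). Of these genes 7 were tested and 1, Mbp, passed as higher, a call lost without any 1 of the WT libraries (adjusted p = 0.116, 0.0842 and 0.108 in edgeR) or without Ocln-KO replicate 1 (0.0505) or 2 (0.0543). Gad2, Snap25 and Neurod6 had at most 3 counts in each library, but not all neuronal genes of the list were near 0. Syt1 was at means of 10.5 and 10.7 CPM and Rbfox3 at 9.28 and 8.35 CPM in WT and Ocln-KO. The libraries thus carried abundant epididymal transcripts, and the cortex list summed to 33.2, 36.2 and 29.6 CPM in WT and to 35.2, 37.4 and 38.7 CPM in Ocln-KO. Among the epididymal genes, Lcn9, Adam28, Cst11 and Rnase10 were too low to be tested. Lcn8 and Cst8 were tested but low, at means of 1.78 and 0.491 CPM over the 6 libraries.

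The libraries of Ocln-KO did not form a tight group. On the first principal component of log2 CPM, which held 47.2% of the variance, WT lay at 43.3, 37 and 52.8 and Ocln-KO at -17.7, -29.1 and -86.3, so that Ocln-KO replicate 3 stood apart. For Gja1, Gjb1 and Gjc1 it was Ocln-KO replicate 1 that lay away from the other Ocln-KO libraries. Where leaving out either library moved the fold change of a connexin most, the value without it is given. Some signs of RNA composition also separated the genotypes. Mitochondrial mRNA made up 2.56%, 2.68% and 2.14% of counts in WT and 1.61%, 1.72% and 1.45% in Ocln-KO, and the nuclear RNA Malat1 made up 1%, 1.2% and 0.955% in WT and 1.82%, 1.51% and 1.57% in Ocln-KO, both without overlap. Their part in the differences between genotypes given below, those of the marker lists included, was not tested.

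In the quasi-likelihood test of edgeR after Benjamini-Hochberg adjustment, 0 of the 7 connexins passed an adjusted p of 0.05, while 1762 of all 19691 tested genes did (8.95%). DESeq2 and limma-voom also called 0 of the 7. At an unadjusted p under 0.05 edgeR gave 1 of the 7, Gjb5, against 29.1% of all tested genes. Of all tested genes, 770 (3.91%) passed as higher and 992 (5.04%) as lower in Ocln-KO. Scaled by total counts only, the split was 1174 higher and 674 lower, that is 63.5% higher in place of 43.7%. The shares of 8.95%, 3.91% and 5.04% are the background for every count of list members called in this main edgeR fit. Calls from other fits have other backgrounds. DESeq2, fitted to 32046 genes without the count filter, called 3179, and limma-voom called 1779 of 19691. Without Ocln-KO replicate 1, edgeR called 1657 of 20352.

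Between the genotypes, libraries did not overlap in 2 of the 7 connexins, Gjb5 and Gja5, and in 36.3% of all tested genes, so the connexins lay near the background by this measure. The range of the Ocln-KO libraries enclosed that of WT in another 2, Gja4 and Gjc1, against 16.2% of all tested genes. The fold change was positive for 3 connexins (Gja1, Gja5 and Gjc1) and negative for 4, with Gja4 turning positive when total counts were used. Their median log2 fold change was -0.06, and that of all tested genes was 0.01.

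**Figure D1:**
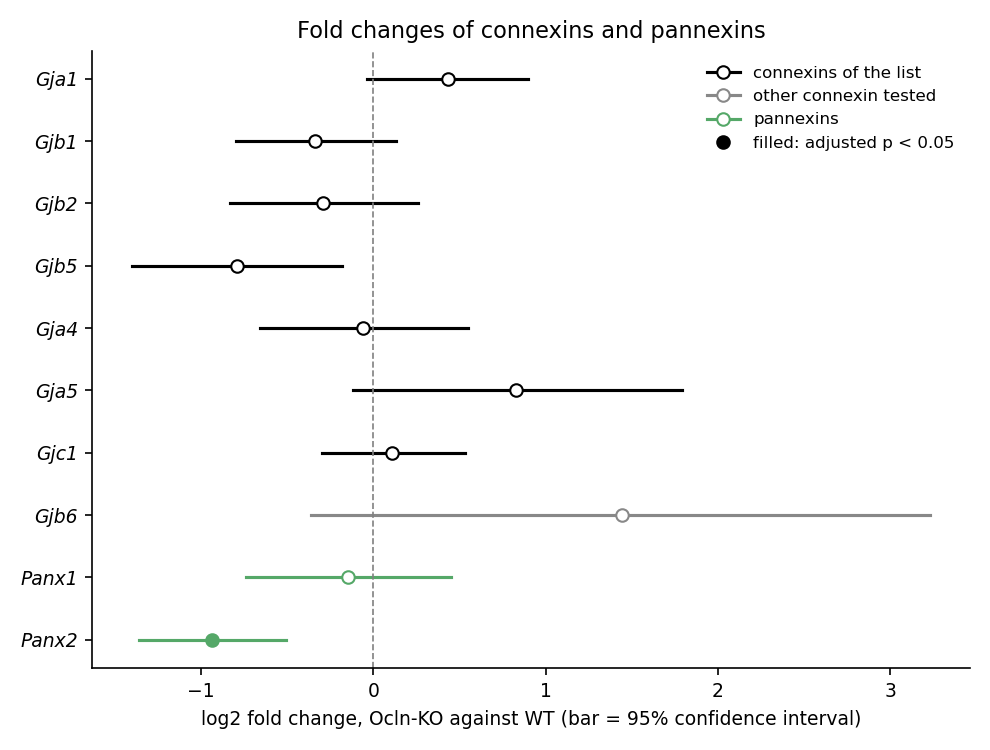
Log2 fold change of Ocln-KO against WT (x axis) for the 7 connexins, Gjb6 and 2 pannexins, with 95% confidence intervals as bars (3 libraries of each genotype). The intervals of Gjb5 and Panx2 lay below 0, and only Panx2, drawn as a filled point, had an adjusted p under 0.05.

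Gja1 encodes Cx43, the most widespread connexin, known in epithelial, stromal and muscle cells, and lies on chromosome 10 from 56377330 to 56402513. It was at 65.6, 71.2 and 59.6 CPM in the WT libraries and at 59.9, 97.4 and 108 CPM in the Ocln-KO libraries. Ocln-KO replicates 2 and 3 were above each WT library, but Ocln-KO replicate 1 lay within the WT range, so the groups overlapped. The mean was 65.5 ± 5.80 CPM for WT and 88.4 ± 25.2 CPM for Ocln-KO (SD, n = 3 each). The difference corresponded to a log2 fold change of 0.43 (95% confidence interval -0.04 to 0.90; edgeR quasi-likelihood test, Benjamini-Hochberg, adjusted p = 0.201). Without Ocln-KO replicate 1 it was 0.65 with an adjusted p of 0.0223 from the same edgeR test, the only one among 14 alternatives in which any of the 7 connexins passed. Over these alternatives the adjusted p of Gja1 ran from 0.0223 to 0.431, and without Ocln-KO replicate 3 the log2 fold change was 0.27. In bulk tissue, more cells of a type and more RNA per cell cannot be told apart.

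Gjb1, on chromosome X from 101376378 to 101385629, encodes Cx32, a connexin of polarised epithelia such as liver and exocrine glands. Its levels stood at 41.7, 43.8 and 56.8 CPM in WT and at 49.3, 33.7 and 29.8 CPM in Ocln-KO. Here Ocln-KO replicates 2 and 3 were below each WT library, and Ocln-KO replicate 1 again fell within the WT range. The mean was 47.5 ± 8.19 CPM for WT and 37.6 ± 10.3 CPM for Ocln-KO (SD, n = 3 each). On the log2 scale the difference was -0.34 (95% confidence interval -0.80 to 0.13; edgeR quasi-likelihood test, Benjamini-Hochberg, adjusted p = 0.311). Leaving out Ocln-KO replicate 1 gave -0.57 with an adjusted p of 0.0674 in the same edgeR test, and leaving out Ocln-KO replicate 3 or WT replicate 3 gave -0.20 and -0.19. Over all alternatives the adjusted p ran from 0.0674 to 0.656.

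Gja1 and Gjb1 therefore departed from WT in opposite directions in the same libraries. The ratio of Gja1 to Gjb1 counts, which no scaling of libraries can alter, was 1.57, 1.63 and 1.05 in WT and 1.22, 2.89 and 3.62 in Ocln-KO. Ocln-KO replicates 2 and 3 were above all WT libraries in this ratio, and Ocln-KO replicate 1 lay among them. The ratio was chosen after the values were seen and was not tested.

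Gjb2 encodes Cx26, a partner of Cx32 in mixed channels of liver and gland cells and the main connexin affected in inherited deafness. It lies on chromosome 14 from 57098600 to 57104702. In WT it was at 3.10, 3.55 and 3.93 CPM and in Ocln-KO at 2.46, 3.04 and 3.17 CPM. The lower part of the WT range overlapped the upper part of the Ocln-KO range, and Ocln-KO replicate 1 was the lowest library. The log2 fold change was -0.29 (95% confidence interval -0.83 to 0.26; edgeR quasi-likelihood test, Benjamini-Hochberg, adjusted p = 0.463), and -0.18 without Ocln-KO replicate 1.

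Gjb5 encodes Cx31.1, known mainly from the keratinocytes of stratified epithelia, and had the lowest adjusted p of the 7. It lies on chromosome 4 from 127354809 to 127358181. The WT libraries held 113, 105 and 96 counts and the Ocln-KO libraries 58, 44 and 62, or 3.02, 3.08 and 2.59 CPM against 1.81, 1.38 and 1.83 CPM. Every WT library was above every Ocln-KO library, and Ocln-KO replicate 1 did not stand apart here. The means of 2.89 ± 0.269 and 1.67 ± 0.255 CPM (SD, n = 3 each) gave a log2 fold change of -0.79 (95% confidence interval -1.40 to -0.18). The unadjusted p was 0.0178, but after Benjamini-Hochberg adjustment over all genes edgeR's quasi-likelihood test gave 0.0980. Over the 14 alternatives the adjusted p lay between 0.0782 (DESeq2) and 0.240 (without WT replicate 1), and the fold change was negative in each.

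**Figure D2:**
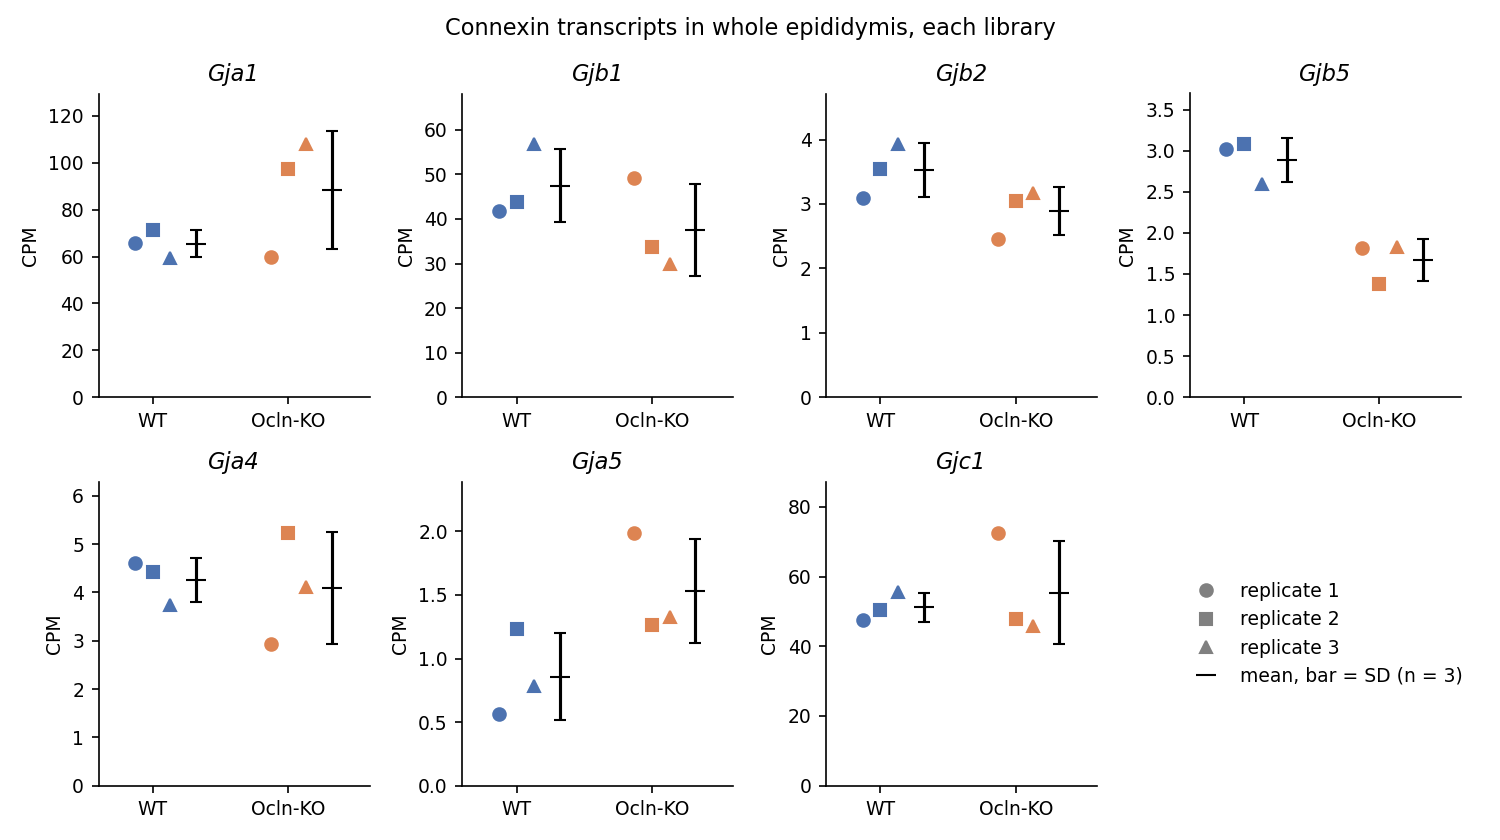
Level of each of the 7 connexins in CPM (y axis, starting at 0) in the 3 WT and 3 Ocln-KO libraries, with 1 symbol per replicate number and the mean ± SD beside the points. Gjb5 was lower in each Ocln-KO library than in each WT library, whereas for Gja1, Gjb1 and Gjc1 Ocln-KO replicate 1 lay away from the other Ocln-KO libraries.

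The epididymal genes did not share 1 order of the Ocln-KO libraries. Crisp1, the most abundant, was at 16769, 12488 and 15417 CPM in WT and at 9957, 9160 and 4439 CPM in Ocln-KO, without overlap and with replicate 1 as the highest Ocln-KO library (adjusted p = 0.0855 in edgeR and 0.00358 in DESeq2). Lcn5, a lipocalin secreted by principal cells of the caput, was at 5279, 5580 and 3926 CPM in WT and at 2479, 6218 and 6476 CPM in Ocln-KO. Adam7, a membrane protein of epididymal epithelium, was at 7850, 8516 and 6004 CPM in WT and at 5071, 9304 and 6406 CPM in Ocln-KO, so that both were lowest in Ocln-KO replicate 1. Over the 12 epididymal genes, of which 8 were tested and 1, Gpx5, passed as higher (not without any 1 of the WT libraries or without Ocln-KO replicate 2, with adjusted p from 0.0740 to 0.14 in edgeR), the summed level stood at 33539, 30312 and 27817 CPM in WT and at 19500, 35715 and 30760 CPM in Ocln-KO. Gpx5 made up 256, 7264 and 10039 CPM of the Ocln-KO sums. The part of these differences between libraries in the connexin values was not tested.

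Gja4 and Gja5 are connexins of blood vessel endothelium. Gja4 encodes Cx37, found in endothelium and also joining the oocyte to its follicle cells, and its gene spans 127311421 to 127314039 on chromosome 4. It was at 4.62, 4.43 and 3.74 CPM in WT and at 2.93, 5.24 and 4.11 CPM in Ocln-KO. The Ocln-KO libraries enclosed the WT range, with replicate 1 lowest. The log2 fold change of -0.06 (95% confidence interval -0.66 to 0.55; edgeR quasi-likelihood test, Benjamini-Hochberg, adjusted p = 0.909) turned to 0.14 without Ocln-KO replicate 1 and to 0.02 with total counts, so no direction can be given.

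Gja5 encodes Cx40 of arterial endothelium and of the atrial conduction system of the heart, and lies on chromosome 3 from 96904693 to 97077416. It was the least abundant of the 7, with 21, 42 and 29 counts in WT and 64, 40 and 45 counts in Ocln-KO. These correspond to 0.561, 1.23 and 0.781 CPM in WT and to 1.99, 1.26 and 1.33 CPM in Ocln-KO. The lowest Ocln-KO library lay just above the highest WT library in CPM but not in counts, so the separation was within what a few reads can shift. The log2 fold change was 0.83 (95% confidence interval -0.12 to 1.79; edgeR quasi-likelihood test, Benjamini-Hochberg, adjusted p = 0.225). It was 0.60 without Ocln-KO replicate 1 and 1.18 without WT replicate 2, and was positive in all 14 alternatives, with adjusted p between 0.176 and 0.472 in those fits.

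Exons of Gja5 overlap exons of Gpr89 on the opposite strand. The libraries were directional, but the strand setting of the counting is not stated, so reads from the shared stretch cannot be told apart. Gpr89, a Golgi membrane protein gene, was far more abundant at 47.7, 51.6 and 47.1 CPM in WT and at 45.3, 49.5 and 52.5 CPM in Ocln-KO. It did not separate the genotypes, with a log2 fold change of 0.01.

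Of 14 endothelial markers 13 were tested and 1 passed, Egfl7, a secreted vascular protein, which was the most abundant of them in WT and fell from a WT mean of 49.5 CPM to an Ocln-KO mean of 24.6 CPM. It did not pass without WT replicate 1 or 3 (adjusted p = 0.0778 and 0.0601 in edgeR), and with a replicate block 0 of the 17 called markers named in the text passed, with adjusted p from 0.0585 to 0.116. The median log2 fold change of the list was 0.22, against 0.01 over all tested genes. Their summed level stood at 232, 212 and 202 CPM in WT and at 182, 209 and 226 CPM in Ocln-KO, and Cldn5, a tight junction protein of endothelium, was not above 3 counts in any library. Of 10 arterial markers, 3 passed. Efnb2 and Nrp1 rose and Unc5b fell, with log2 fold changes of 1.02, 0.64 and -0.92. Nrp1 had a WT mean of 67.6 CPM and an Ocln-KO mean of 106 CPM. Its CPM, not corrected for length, was the highest of the list in the mean over the 6 libraries though not in WT. None of the 3 passed without WT replicate 1 or 3, nor Nrp1 and Unc5b without WT replicate 2, with adjusted p from 0.0609 to 0.108 in those edgeR fits. The arterial sum stood at 339, 323 and 302 CPM in WT and at 397, 358 and 377 CPM in Ocln-KO, highest in Ocln-KO replicate 1, in which Gja5 was also highest. These genes are also expressed outside vessels, and their part in the Gja5 values was not tested.

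Gjc1 encodes Cx45, known from smooth muscle, vessel walls and the conduction system of the heart, and lies on chromosome 11 from 102799579 to 102819700. It was at 47.4, 50.5 and 55.6 CPM in WT and at 72.6, 47.8 and 45.8 CPM in Ocln-KO. Ocln-KO replicate 1 was the highest of all 6 libraries, while replicate 2 lay at the lower end of the WT range and replicate 3 just below it. The means of 51.2 ± 4.12 and 55.4 ± 14.9 CPM (SD, n = 3 each) gave a log2 fold change of 0.11 (95% confidence interval -0.30 to 0.53), which became -0.12 without Ocln-KO replicate 1 and 0.21 and 0.23 without replicates 2 and 3 of Ocln-KO. The adjusted p was 0.713 in the quasi-likelihood test of edgeR after Benjamini-Hochberg adjustment.

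Several smooth muscle genes rose in Ocln-KO. Of 10 contractile markers 4 passed, Myh11, Actg2, Synpo2 and Mylk, all as higher, where 3.91% of all tested genes passed as higher. The fold changes of all 10 were positive with TMM factors and with total counts, and the median log2 fold change of the 10 was 0.53. The summed level of these markers stood at 1718, 1954 and 1722 CPM in WT and at 2328, 2890 and 2553 CPM in Ocln-KO. Myh11, the smooth muscle myosin heavy chain, had a WT mean of 494 CPM and an Ocln-KO mean of 840 CPM. Its CPM, not corrected for length, was the highest of them in the mean over the 6 libraries though not in WT. All 4 calls were lost without any 1 of the WT libraries and without Ocln-KO replicate 2, with adjusted p from 0.0508 to 0.171 in edgeR, and with a replicate block. Synpo2 was also above 0.05 without Ocln-KO replicate 3 (0.0512), and Actg2 in limma-voom (0.057). Without Ocln-KO replicate 1, the fit in which Gja1 passed, the 4 calls stood in edgeR. Tagln (0.0223), Cnn1 (0.0302) and Des (0.0239) passed there too. Genes of other lists also passed in that edgeR fit, among them the fibroblast genes Lum (0.047) and Pi16 (0.0366), both as higher. DESeq2 called 7 of the 10 markers and limma-voom 3. The smooth muscle sum was lowest in replicate 1 among the Ocln-KO libraries, where Gja1 was lowest and Gjc1 highest. The endothelial, fibroblast, immune and epididymal sums were lowest in that library too, while the arterial, epithelial and clear cell sums were highest in it. Whether the smooth muscle share had a part in the values of Gja1 or Gjc1 was not tested.

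The epithelial lists gave a mixed picture beside Gja1, Gjb1 and Gjb2. Of 10 general epithelial markers 1 passed, Krt19, which was higher, and the most abundant, Krt18, was at a mean of 453 CPM in both genotypes. The epithelial sum stood at 1715, 1759 and 1947 CPM in WT and at 1870, 1660 and 1537 CPM in Ocln-KO. Of 10 basal cell markers Krt14 passed as higher, and the sum stood at 303, 283 and 301 CPM in WT and at 345, 293 and 345 CPM in Ocln-KO. Itga6, highest in CPM (not corrected for length) in WT but not in Ocln-KO, was at means of 75.9 and 65.4 CPM. Neither keratin passed without any 1 of the WT libraries, nor Krt19 without Ocln-KO replicate 1 and Krt14 without Ocln-KO replicate 2, with adjusted p from 0.0525 to 0.129 in edgeR. Of 10 markers of clear cells, the acid-secreting cells of the duct, 8 were tested and 4 passed, Foxi1, Atp6v1b1, Atp6v0d2 and Atp6v0a4, all as lower. Of all tested genes 8.95% passed, and 5.04% as lower. The clear cell sum stood at 186, 196 and 236 CPM in WT and at 140, 132 and 136 CPM in Ocln-KO, and Atp6v1c2, the most abundant in WT but not in Ocln-KO, was at 59.6 and 34.5 CPM. All 4 clear cell calls were lost without any 1 of the WT libraries, with adjusted p from 0.0600 to 0.142 in edgeR, and Foxi1 also without Ocln-KO replicate 2 (0.089). Atp6v1b1 lost its call in 9 of 14 alternatives, among them each Ocln-KO library left out (0.0673, 0.117 and 0.0551), limma-voom (0.054) and total counts (0.0629). The median log2 fold changes were -0.01 for the epithelial, 0.20 for the basal cell and -0.77 for the clear cell markers. The part of these cell types in the connexin values was not tested.

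In the 3 connexins with the highest counts, Ocln-KO replicate 1 differed from the other Ocln-KO libraries. Relative to the WT mean on the log2 scale, it was at -0.13 for Gja1, 0.05 for Gjb1 and 0.50 for Gjc1. Ocln-KO replicates 2 and 3 were at 0.57 and 0.72 for Gja1, at -0.49 and -0.67 for Gjb1 and at -0.10 and -0.16 for Gjc1. This did not hold for Gjb5, at -0.68, -1.07 and -0.66 in Ocln-KO, where replicate 2 was the one apart. Among the 3 genes with the highest counts, Gjc1 exceeded Gja1 only in this library, with a Gja1 to Gjc1 ratio of 0.826, against 1.38, 1.41 and 1.07 in WT and 2.04 and 2.36 in the other Ocln-KO libraries. The order of these genes also differed in WT replicate 3, where Gjb1 counts exceeded Gjc1 counts, with a Gjc1 to Gjb1 ratio of 0.978. The standard deviation of log2 CPM was larger in Ocln-KO than in WT for 6 of the 7 connexins, all but Gja5, and for 60.4% of all tested genes. For Gja1 it was 0.128 in WT and 0.452 in Ocln-KO, where the medians over all tested genes were 0.18 and 0.236.

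**Figure D3:**
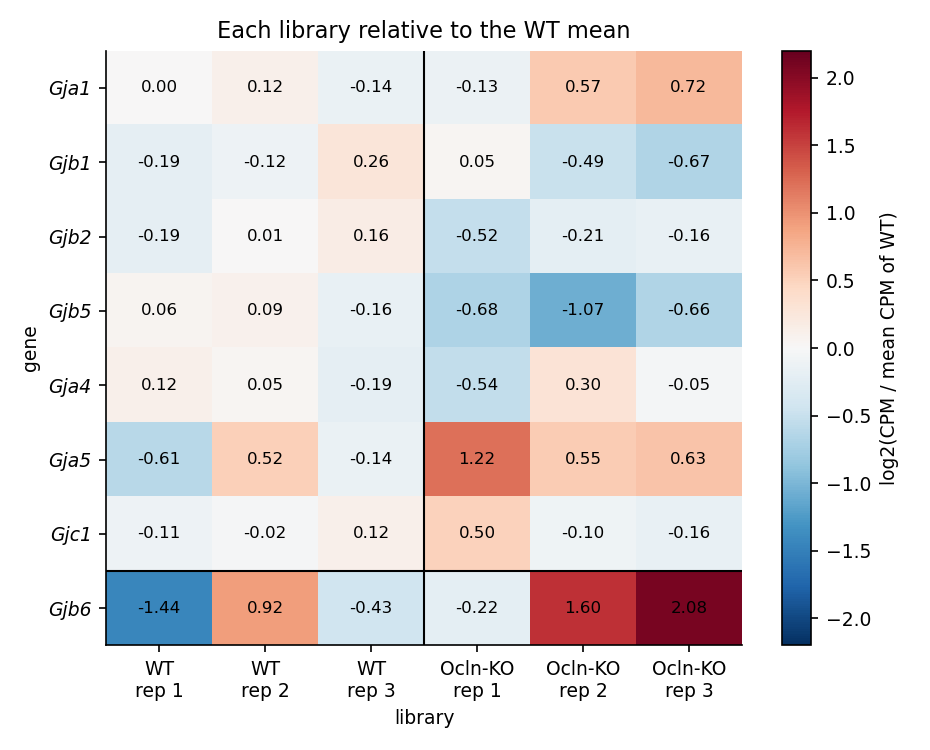
Log2 of the CPM of each library over the mean CPM of WT (colour and printed value) for the 7 connexins and, below the line, Gjb6, with libraries as columns. Gja1 was at -0.13 in Ocln-KO replicate 1, where Ocln-KO replicates 2 and 3 had 0.57 and 0.72.

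Levels of different genes can be compared only per length, and the lengths of Gja1 and Gjc1 depend on the annotation. The union of all annotated exons was 10257 bases for Gja1 and 5003 for Gjc1, while the longest coding transcript with a RefSeq match was 3071 and 2314 bases. For Gjb1 the same lengths were 1707 and 1585 bases. With the union of exons, Gjb1 was the highest of the 7 in WT at 27.8 ± 4.80 CPM per kilobase, followed by Gjc1 at 10.2 ± 0.824 and Gja1 at 6.38 ± 0.565 (SD, n = 3 each). The library ranges of these 3 genes did not overlap on that scale.

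With the transcript length, which was added after the annotation had been seen, Gjb1 was at 29.9 ± 5.17, Gjc1 at 22.1 ± 1.78 and Gja1 at 21.3 ± 1.89 CPM per kilobase in WT (SD, n = 3 each). Gjb1 was still the highest, but Gjc1 and Gja1 overlapped, from 20.5 to 24.0 and from 19.4 to 23.2. In Ocln-KO the transcript length put Gja1 first, at 28.8 ± 8.20 CPM per kilobase, with Gjc1 at 23.9 ± 6.45 and Gjb1 at 23.7 ± 6.49 (SD, n = 3 each), and all 3 ranges overlapped. With the union of exons, Gjb1 was first in Ocln-KO too, at 22.0 ± 6.03 CPM per kilobase (SD, n = 3) and from 17.5 to 28.9, above Gjc1 from 9.15 to 14.5 and Gja1 from 5.84 to 10.5. The order of the abundant connexins in Ocln-KO thus depended on the length used.

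Below them came Gja4 at 2.53 ± 0.274, Gjb5 at 1.68 ± 0.156 and Gjb2 at 1.47 ± 0.173 CPM per kilobase in WT (SD, n = 3 each), where the last pair overlapped; for these genes both lengths are the same. Gja5 was lowest at 0.149 ± 0.0594 with the union of exons and 0.276 ± 0.110 with the transcript (SD, n = 3 each). In Ocln-KO, Gjb5 at 0.973 ± 0.148 and Gjb2 at 1.20 ± 0.156 CPM per kilobase exchanged places in the order of means, with overlapping ranges (SD, n = 3 each).

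**Figure D4:**
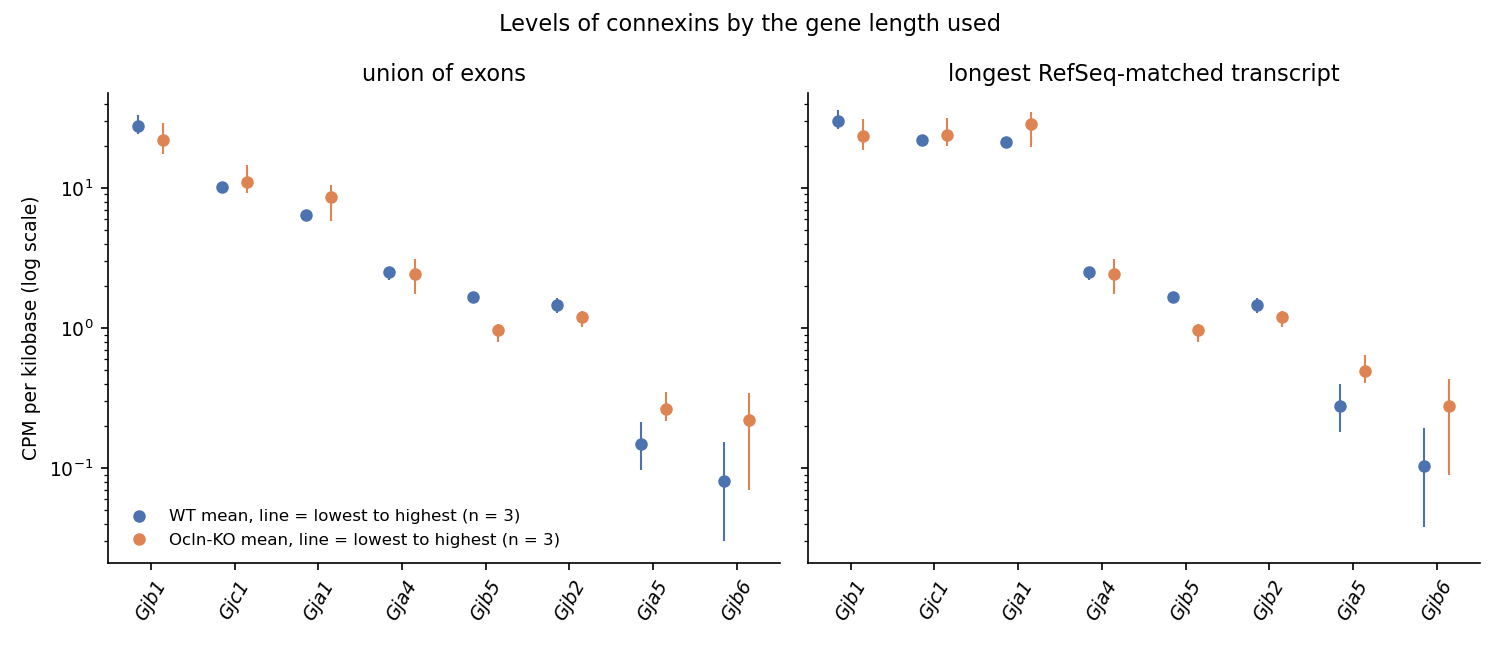
Level per length in CPM per kilobase (y axis, log scale) of the 7 connexins and Gjb6, using the union of exons on the left and the longest RefSeq-matched coding transcript on the right. Points are means of 3 libraries and lines run from the lowest to the highest library. Gjb1 had the highest mean of these 8 genes in WT with either length.

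The summed level of the 7 connexins with the union of exons was 46.2, 48.8 and 55.7 CPM per kilobase in WT and 53.4, 44.2 and 42.2 in Ocln-KO. The groups overlapped, with Ocln-KO replicate 1 second highest of the 6 libraries. The log2 ratio of the means was -0.11 (-0.213 without Ocln-KO replicate 1, -0.0448 without Ocln-KO replicate 3, -0.167 without WT replicate 1, -0.0265 without WT replicate 3 and -0.0234 with total counts), and an exact two-sided permutation test gave p = 0.5, where 0.1 is the smallest value that 3 against 3 libraries allow. With the transcript length the sums were 74.2, 78.9 and 84.9 in WT and 86.4, 79.2 and 79.0 in Ocln-KO, and the log2 ratio was 0.04 (exact permutation p = 0.5), so the direction turned with the length used. Within the exon-based sum, Gjb1 made up 52.9%, 52.6% and 59.8% in WT and 54.1%, 44.7% and 41.4% in Ocln-KO, and Gja1 made up 13.8%, 14.2% and 10.4% in WT and 11.0%, 21.5% and 24.9% in Ocln-KO. For these genes the shares of Ocln-KO replicate 1 lay in the WT range, and those of the other Ocln-KO libraries outside it. The shares of the other 5 genes in Ocln-KO replicate 1 lay outside the WT range, among them Gjc1 at 27.2% against 20.5%, 20.7% and 19.9% in WT and Gja4 at 3.26% against 5.94%, 5.38% and 3.99%.

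Of 9 other connexins, 1 was abundant enough to be tested, Gjb6, the Cx30 of cochlea and astrocytes, which lies on chromosome 14 from 57123303 to 57133611. It had 3, 14 and 6 counts in WT and 6, 21 and 31 in Ocln-KO, an overlap at very low counts. The log2 fold change was 1.44 (95% confidence interval -0.36 to 3.23; edgeR quasi-likelihood test, Benjamini-Hochberg, adjusted p = 0.261). It was 2.25 without WT replicate 2 and 0.97 without Ocln-KO replicate 3. DESeq2 and limma-voom did not call it either. The remaining 8 were not tested in the main fit. Gja6 had up to 15 counts in a library, Gjc3 up to 12, and Gja3, Gja10 and Gjd4 up to 6. Gjd2, the neuronal connexin, whose exons overlap another transcript on the opposite strand, had up to 5 counts, Gjd3 up to 4, and Gje1 had 0 in all libraries.

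Pannexins form channels of similar shape in single membranes and are known for releasing ATP. Panx2 was at 8.50, 11.3 and 11.5 CPM in WT and at 5.42, 5.96 and 4.91 CPM in Ocln-KO. Each Ocln-KO library lay below each WT library. With means of 10.4 ± 1.66 and 5.43 ± 0.525 CPM (SD, n = 3 each), Panx2 fell by 0.94 on the log2 scale, the only pannexin called (edgeR quasi-likelihood test, Benjamini-Hochberg, adjusted p = 0.0280). The adjusted p ran from 0.000468 (DESeq2) to 0.108 over the alternatives, and it was above 0.05 without any 1 of the WT libraries (0.0818, 0.0870 and 0.108) and without Ocln-KO replicate 2 (0.0583). Panx1, the widespread member, was at 3.23, 2.61 and 2.40 CPM in WT and at 2.12, 2.64 and 2.69 CPM in Ocln-KO, overlapping, and Panx3 had 1 count in a single WT library.

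Of 22 genes whose proteins bind, anchor, traffic or phosphorylate connexins, 21 were tested and 2 passed, 1 in each direction. That is near the 8.95% of all tested genes that passed. The median log2 fold change of the 21 was 0.09. Tjp1 encodes ZO-1, the scaffold that binds the tail of Cx43 at the rim of gap junction plaques and also binds occludin. It was at 169, 170 and 158 CPM in WT and at 235, 220 and 210 CPM in Ocln-KO, each Ocln-KO library above each WT library. Tjp1 rose by 0.42 on the log2 scale (edgeR quasi-likelihood test, Benjamini-Hochberg, adjusted p = 0.0299). Prkcd, a protein kinase C, was at 137, 138 and 166 CPM in WT and at 97.6, 105 and 92.9 CPM in Ocln-KO, without overlap, and fell by 0.58 on the log2 scale (same edgeR test, adjusted p = 0.0235). Without any 1 of the WT libraries or without Ocln-KO replicate 2, neither gene passed, with adjusted p from 0.0508 to 0.115 in edgeR. The partners with the highest CPM in the mean over the 6 libraries, an order not corrected for length, did not pass. Nedd4, a ubiquitin ligase that acts on Cx43, was at means of 730 and 789 CPM in WT and Ocln-KO, Ctnnb1, the adherens junction protein beta-catenin, at 596 and 495 CPM, and Cdh1, E-cadherin, at 460 and 381 CPM.

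Among 16357 tested genes with a mean of at least 1 CPM, the profiles most like that of Gjb5 over the 6 libraries were those of Sypl2, Ctnnd2 and Plagl1. Likeness was the root mean square difference of log2 CPM after centring each gene, which was 0.09, 0.10 and 0.10. Sypl2 was at 13.1, 14.3 and 13.3 CPM in WT and at 9.38, 7.22 and 8.67 CPM in Ocln-KO. Ctnnd2, the delta-catenin gene, was at 9.28, 9.29 and 7.46 CPM in WT and at 6.36, 4.71 and 5.50 CPM in Ocln-KO. Plagl1, an imprinted zinc finger gene, was at 20.9, 19.0 and 17.0 CPM in WT and at 11.3, 8.51 and 13.6 CPM in Ocln-KO. All 3 shared with Gjb5 the lack of overlap between genotypes, which follows largely from choosing them by likeness to it. Sypl2 and Plagl1 passed in edgeR's quasi-likelihood test (adjusted p = 0.0354 and 0.0458), whereas Ctnnd2 (0.0693) and Gjb5 did not. The calls of Sypl2 and Plagl1 were lost in 6 and 7 of the 14 alternatives. Likeness of profile says nothing of shared control.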

How the data were processed

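Whole-epididymis RNA of WT and Ocln-KO mice was depleted of rRNA, made into directional libraries and sequenced in pairs. After trimming, the authors used HISAT2 (2.0.4 in the submitters' processing notes) for alignment to GRCm38 and HTSeq for assignment to genes. What they deposited is 1 unnormalized count per gene and library; the strand setting, the annotation and the treatment of reads with several alignments are not given in the sources used here. Columns were matched by name, with 0 unmatched.

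The whole table was fitted with edgeR 4.0.16 under R 4.3.3 (filterByExpr, TMM factors, glmQLFit, glmQLFTest) and p-values were adjusted by Benjamini-Hochberg over the 19691 genes tested; a gene was called at an adjusted p under 0.05. At the fold change threshold of 2 used in the study, 628 genes (3.19%) passed, with 0 connexins among them. Fits were tested on simulated counts. Alternatives were DESeq2 1.42.0, limma-voom (limma 3.58.1), a block for the replicate number, each library left out, 3 other scalings (total counts, RLE, and TMM leaving aside the top 20 genes) and 2 other filters (none, and a minimum of 10 counts per library).

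Exon lengths, coordinates and coding sequences come from GENCODE M21. The exon union of RefSeq, planned for the levels per length, was not used here, and that of GENCODE took its place; the transcript length was added later. Some connexins of the planned list and 1 loop sequence are not reported here. Named genes were the other connexins, the pannexins, Ocln, the partners called, the 3 most abundant partners and the 3 profiles most like the connexin with the lowest adjusted p. Of each marker list the most abundant gene (mean over the 6 libraries) and genes at or under 3 counts in each library (planned as genes at 0) were named. Gpr89, Lcn5, Adam7, Col3a1, Syt1, Rbfox3, Adipoq, Car3, Cfd and the called markers were picked once their values had been seen. So were Lcn8, Lcn9, Adam28, Cst8, Cst11, Rnase10, Tagln, Cnn1, Des, Lum, Pi16, Cd68, Adgre1, Itgam and Tnp1. Members and lists were chosen with earlier results of these data known. Proteins are not analysed here.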

Additional observations from a re-analysis of the deposited data

How the results depend on the processing

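The 8 tested connexins, 2 pannexins, 5 partners, 3 genes of similar profile and 17 called markers were refitted under 14 alternatives, Gjb6 under 13 because the stricter count filter removed it. Of the 489 fits, 373 kept the direction and the side of the threshold, 110 lost a call, 2 gained one (Gja1 without Ocln-KO replicate 1 and Ctnnd2 with DESeq2) and 4 reversed. With total counts only, the log2 fold change of Gja4 was 0.0223. With libraries left out in turn it ran from -0.27 to 0.14 for Gja4 and from -0.12 to 0.23 for Gjc1. The summed connexin level had a log2 ratio of 0.0395 with the transcript length, added after the data were seen, where the length itself is what changed; with the union of exons it was negative in every alternative, from -0.213 without Ocln-KO replicate 1 to -0.0234 with total counts. When libraries were left out, the number of the 7 connexins called ran from 0 to 1, of pannexins from 0 to 1 and of partners from 0 to 2. Over all tested genes it ran from 23 (without WT replicate 1) to 1692 (without Ocln-KO replicate 3). Without WT replicates 2 and 3 and without Ocln-KO replicates 1 and 2, 230, 56, 1657 and 562 genes were called. These fits held equally few libraries, and the cause of the differences among them was not tested. DESeq2, fitted to 32046 genes without the count filter, called 3179, where edgeR called 2158 of the same number of genes without a filter and 1762 of the 19691 past it; the cause was not tested. Of the 9 other connexins 0 were called in any alternative, Gjb6 included in the 13 that tested it, and Ocln passed in all 14.

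No sign of pairing by replicate number was seen. Deviations from the group means correlated at -0.0525, -0.0315 and -0.00256 between libraries of the same number, and no library correlated best with its own number. With 3 libraries of each genotype, these values cannot show whether the numbers follow the pairs of mice in the study's methods. With a replicate block, 41 genes were called, with 0 pannexins, 0 partners and 0 of the 17 called markers among them. Depth limits Gja5, Gjb6 and the untested connexins, whose counts were low.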

Other observations

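Lists not described with the connexins also differed between libraries. Of 10 immune markers 7 were tested and 1 passed, Ptprc, the leukocyte surface phosphatase, at 15.1, 13.3 and 10.8 CPM in WT and at 29.2, 38.6 and 46.3 CPM in Ocln-KO. It did not pass without WT replicate 1 or 3 (adjusted p = 0.061 and 0.0643 in edgeR) or with a replicate block (0.0688). All 7 fold changes were positive, 5 had an unadjusted p under 0.05, and DESeq2 called 2 and limma-voom 1. Without Ocln-KO replicate 1, Cd68 (0.0273), Adgre1 (0.0376), Csf1r (0.0477) and Itgam (0.035) passed as well as Ptprc (adjusted p in edgeR). The immune sum was at 81.3, 73.3 and 70.5 CPM in WT and at 96.1, 132 and 179 CPM in Ocln-KO; the most abundant, Csf1r, was at means of 35.2 and 53.5 CPM, and the median log2 fold change of the list was 0.90. Of 10 fibroblast markers 0 passed in edgeR's test, 3 had an unadjusted p under 0.05, and DESeq2 called 1 and limma-voom 0. Without Ocln-KO replicate 1, Lum and Pi16 passed as higher (adjusted p = 0.047 and 0.0366 in edgeR), and Lum also without a count filter (0.0435). The 10 markers had a median log2 fold change of 0.39, and 9 of them a positive one. Their sum stood at 2548, 2626 and 2794 CPM in WT and at 2020, 2779 and 5547 CPM in Ocln-KO, with Col1a1, most abundant in WT but not in Ocln-KO, at means of 805 and 874 CPM, and Col3a1 at 1705 CPM in Ocln-KO replicate 3 against 455 and 680 CPM in the other Ocln-KO libraries. Of 10 genes of spermatids and sperm 0 passed in edgeR, DESeq2 or limma-voom, and 0 had an unadjusted p under 0.05. Their sum stood at 360, 264 and 306 CPM in WT and at 348, 380 and 87.2 CPM in Ocln-KO, so that Ocln-KO replicate 3 was high in fibroblast and low in sperm transcripts. Odf1 was most abundant at means of 139 and 103 CPM. Without Ocln-KO replicate 3, Tnp1 passed as higher (log2 fold change 1.0, adjusted p = 0.0364 in edgeR). Of 10 adipocyte markers 8 were tested and 0 passed in edgeR, with 4 at an unadjusted p under 0.05, 1 by DESeq2 and 0 by limma-voom. The adipocyte sum was at 31.0, 41.1 and 28.9 CPM in WT and at 23.0, 24.4 and 11.9 CPM in Ocln-KO, without overlap, 7 of the 8 fold changes were negative, and their median on the log2 scale was -2.05. These values rest on low counts and move with 1 library: Adipoq was at -4.32 and Car3 at -4.10 without Ocln-KO replicate 1, where both passed (adjusted p = 0.0453 and 0.0438 in edgeR), and at -1.66 and -2.08 when replicate 3 of Ocln-KO was left out, where Car3 (0.0469) and Cfd (0.0381) passed and Adipoq (0.187) did not. The most abundant, Lipe, the one with a positive fold change, was at means of 14.7 and 15.4 CPM.

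The largest fold change among the epididymal genes tested was that of Gpx5, a glutathione peroxidase secreted by the caput. It was at 54.5, 172 and 26.3 CPM in WT and at 256, 7264 and 10039 CPM in Ocln-KO. Here, too, Ocln-KO replicate 1 lay far below the other Ocln-KO libraries. The log2 fold change was 6.12 (edgeR quasi-likelihood test, Benjamini-Hochberg, adjusted p = 0.0359), and over leaving out each WT library or Ocln-KO replicate 2 the adjusted p ran up to 0.14 and was never under 0.0740 in edgeR. The fold change was 7.18 without WT replicate 2 on the log2 scale, 6.69 when Ocln-KO replicate 1 was left out and 5.49 when replicate 3 of Ocln-KO was, and 5.40 with a replicate block, where the gene did not pass (adjusted p = 0.114).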
